A study of Mus musculus with 20 samples.

Results

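The subunit genes of respiratory complexes I, II and III and of the ATP synthase (complex V) were followed in hearts of young mice, old mice and old mice fed vitamin E. Members were the probe sets with a single gene symbol that starts with Ndufa, Ndufb, Ndufc, Ndufs, Ndufv, Uqcr or Atp5, together with Sdha, Sdhb, Sdhc, Sdhd and Cyc1, without the Ndufaf assembly factors. Each gene was represented by its brightest probe set. The rule took 73 probe sets and 55 of the 8251 named genes of the table, with 29 genes of complex I, 4 of complex II, 8 of complex III and 14 of complex V. A further 8 probe sets carried several symbols and were not named. The subunit genes Ndufs7, Ndufs8, Uqcrfs1, Atp5b and Atp5g3, and Ndufa4, were not analysed here.

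The series measured transcripts in whole-tissue heart RNA of 20 male mice, with 1 oligonucleotide array per animal and 4 groups of 5. The young controls, aged 5 months, ate a control diet. Old controls, aged 30 months, ate the same diet. The alpha-tocopherol group, also at 30 months, had received 1000 mg/kg alpha-tocopherol in the diet from 15 months of age. The group given both tocopherols, again at 30 months, had received 500 mg/kg of alpha-tocopherol and 500 mg/kg of gamma-tocopherol from 15 months. All animals were crosses of B6 and C3H and were kept 1 to a cage. The strain label is B6/C3H F1 hybrid for 18 of them and B6/C3H hybrid, without F1, for old controls 1 and 4. The labels do not say which region of the heart was taken.

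Complexes I and II pass electrons from NADH and from succinate to coenzyme Q, complex III passes them on to cytochrome c, and complexes I and III pump protons as they do so. The ATP synthase lets the protons flow back and makes ATP. Heart muscle meets most of its need for ATP in this way and is rich in mitochondria. Complex II is also an enzyme of the citric acid cycle. A few subunits of complexes I, III and V are encoded in mitochondrial DNA, and all members here are encoded in the nucleus. Alpha- and gamma-tocopherol are forms of vitamin E, lipid-soluble antioxidants. Alpha-tocopherol carries 1 more methyl group on its ring than gamma-tocopherol.

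Levels are given as log2(intensity + 58), with the 10th percentile of the table's values, 58, added before the logarithm. A difference is a difference of group means on that scale, ± its standard error with 5 animals per group, and it understates the fold change of dim probe sets. A gene is said to have risen, fallen or changed where its adjusted p lay below 0.05. The adjusted p is limma's two-sided p after Benjamini-Hochberg adjustment across the 7453 probe sets tested, and the animal is the replicate. Levels of different genes were not compared, since probe sets differ in how brightly they read. In whole tissue, fewer cells of a type and less RNA per cell cannot be told apart.

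Of the 55 genes, 52 passed the filter that left out the dimmest 40% of probe sets, with 27 of complex I, 4 of complex II, 8 of complex III and 13 of complex V. The 3 others, Ndufa12, Ndufs4 and Atp5j2, had dim probe sets and are described separately. Heart tissue showed in its markers: the 12 cardiomyocyte markers on the array, of 14 listed, were all tested, and their lowest intensity on any array was 629.5. Some arrays stood apart. Young control 3 had the lowest median of member levels of all 20 arrays and a summed T cell marker intensity of 30200, with the other 19 arrays at or below 5160. The log2 difference between the 3' and 5' probe sets of Gapdh was 1.21 in old control 3 and at most 0.19 on the other 19 arrays. On the alpha-tocopherol arrays the hybridization controls, transcripts added to every sample, read 0.85 (log2) higher than in old controls, and the 18S signal read 1.66 higher. Neither measure overlapped between the groups (two-sided exact permutation p = 0.0079, which 5 against 5 arrays cannot go below, and 0.032 after Benjamini-Hochberg adjustment over 16 tests).

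Promoter windows from RefSeq are shown here for 4 members, to set the genes described below beside the regulatory sequence at their starts. Each window runs from 250 bases before the annotated start to 50 bases after it, on the assembly GRCm38.p6, 5' to 3' along the gene. Capitals mark matches to the letters CCGGAAG (GABP), GCGCATGCG (NRF1), AAGATGGCG (YY1) or TCAAGGTCA (an estrogen-related receptor, ERR) on either strand. These factors are known to act on promoters of respiratory genes. Ndufb8 and Ndufb7 rose with alpha-tocopherol, while Sdhd and Uqcrc1 did not pass the test in any comparison.
Ndufb8, chr19:44555393-44555692, minus strand: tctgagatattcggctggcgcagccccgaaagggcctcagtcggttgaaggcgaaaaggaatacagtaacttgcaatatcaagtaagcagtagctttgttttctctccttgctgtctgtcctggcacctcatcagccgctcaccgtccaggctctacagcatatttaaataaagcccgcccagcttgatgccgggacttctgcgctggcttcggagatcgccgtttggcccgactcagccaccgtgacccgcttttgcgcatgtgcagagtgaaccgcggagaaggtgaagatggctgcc
Ndufb7, chr8:83566508-83566807, plus strand: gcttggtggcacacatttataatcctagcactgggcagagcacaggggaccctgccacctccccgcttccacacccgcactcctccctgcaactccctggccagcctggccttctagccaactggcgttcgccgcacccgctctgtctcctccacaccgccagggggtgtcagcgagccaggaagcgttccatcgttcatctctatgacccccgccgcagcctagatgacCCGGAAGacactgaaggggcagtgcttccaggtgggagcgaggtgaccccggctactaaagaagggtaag
Sdhd, chr9:50603800-50604099, minus strand: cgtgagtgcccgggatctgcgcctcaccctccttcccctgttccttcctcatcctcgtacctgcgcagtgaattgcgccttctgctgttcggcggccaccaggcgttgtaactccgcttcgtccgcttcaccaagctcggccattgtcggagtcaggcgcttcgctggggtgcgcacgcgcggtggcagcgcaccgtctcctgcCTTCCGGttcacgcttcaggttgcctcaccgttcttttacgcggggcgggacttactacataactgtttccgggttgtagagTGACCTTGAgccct
Uqcrc1, chr9:108936398-108936697, plus strand: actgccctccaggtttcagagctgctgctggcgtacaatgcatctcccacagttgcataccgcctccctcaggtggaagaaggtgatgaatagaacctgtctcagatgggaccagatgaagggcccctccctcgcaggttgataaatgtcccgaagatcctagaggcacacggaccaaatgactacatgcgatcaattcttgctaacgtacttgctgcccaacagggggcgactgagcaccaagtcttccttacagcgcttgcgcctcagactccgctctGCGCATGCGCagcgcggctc
The Ndufb7 window holds a GABP match at position -20 from the start. The Sdhd window holds a GABP match at -46 and an ERR match at 36, both on the reverse strand. The Uqcrc1 window holds overlapping NRF1 matches at 30 on the forward and 31 on the reverse strand, and the Ndufb8 window holds none of these letters. A window was listed for 45 of the 55 genes, and 19 of them (42.2%) held at least 1 of the 4 matches, against 13.1% of 27025 genes. GABP letters stood in 12 member windows (26.7%, against 9.93% of all genes), NRF1 letters in 6 (13.3% against 1.95%), YY1 letters in 5 (11.1% against 1.64%) and ERR letters in 1 (2.22% against 0.466%). A match is a description of the letters and not a bound site. The 17 tested members with a match had a median alpha-tocopherol difference of 0.09 and ranged from -0.18 to 0.52. The 25 tested members with a window and no match had a median of 0.10 and ranged from -0.51 to 0.77. For age the medians were 0.02 with a match and 0.05 without.

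Member levels varied less between animals of a group than those of most probe sets. The within-group SD had a median of 0.17 over the 52 tested genes, from 0.11 for Ndufb9 to 0.45 for Ndufa1, against a median of 0.28 over all tested probe sets. A member's difference accordingly had a standard error of 0.11 in the median, against 0.18 for all tested probe sets. These genes read brightly, and the spread of bright probe sets was not compared separately. The names of some members' probe sets carry a suffix for probes shared with, or similar to, other transcripts (7 with f, 2 with s and 1 with g, among them Uqcrc2 and Sdhb), so other transcripts may add to those values.

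**Figure D1:**
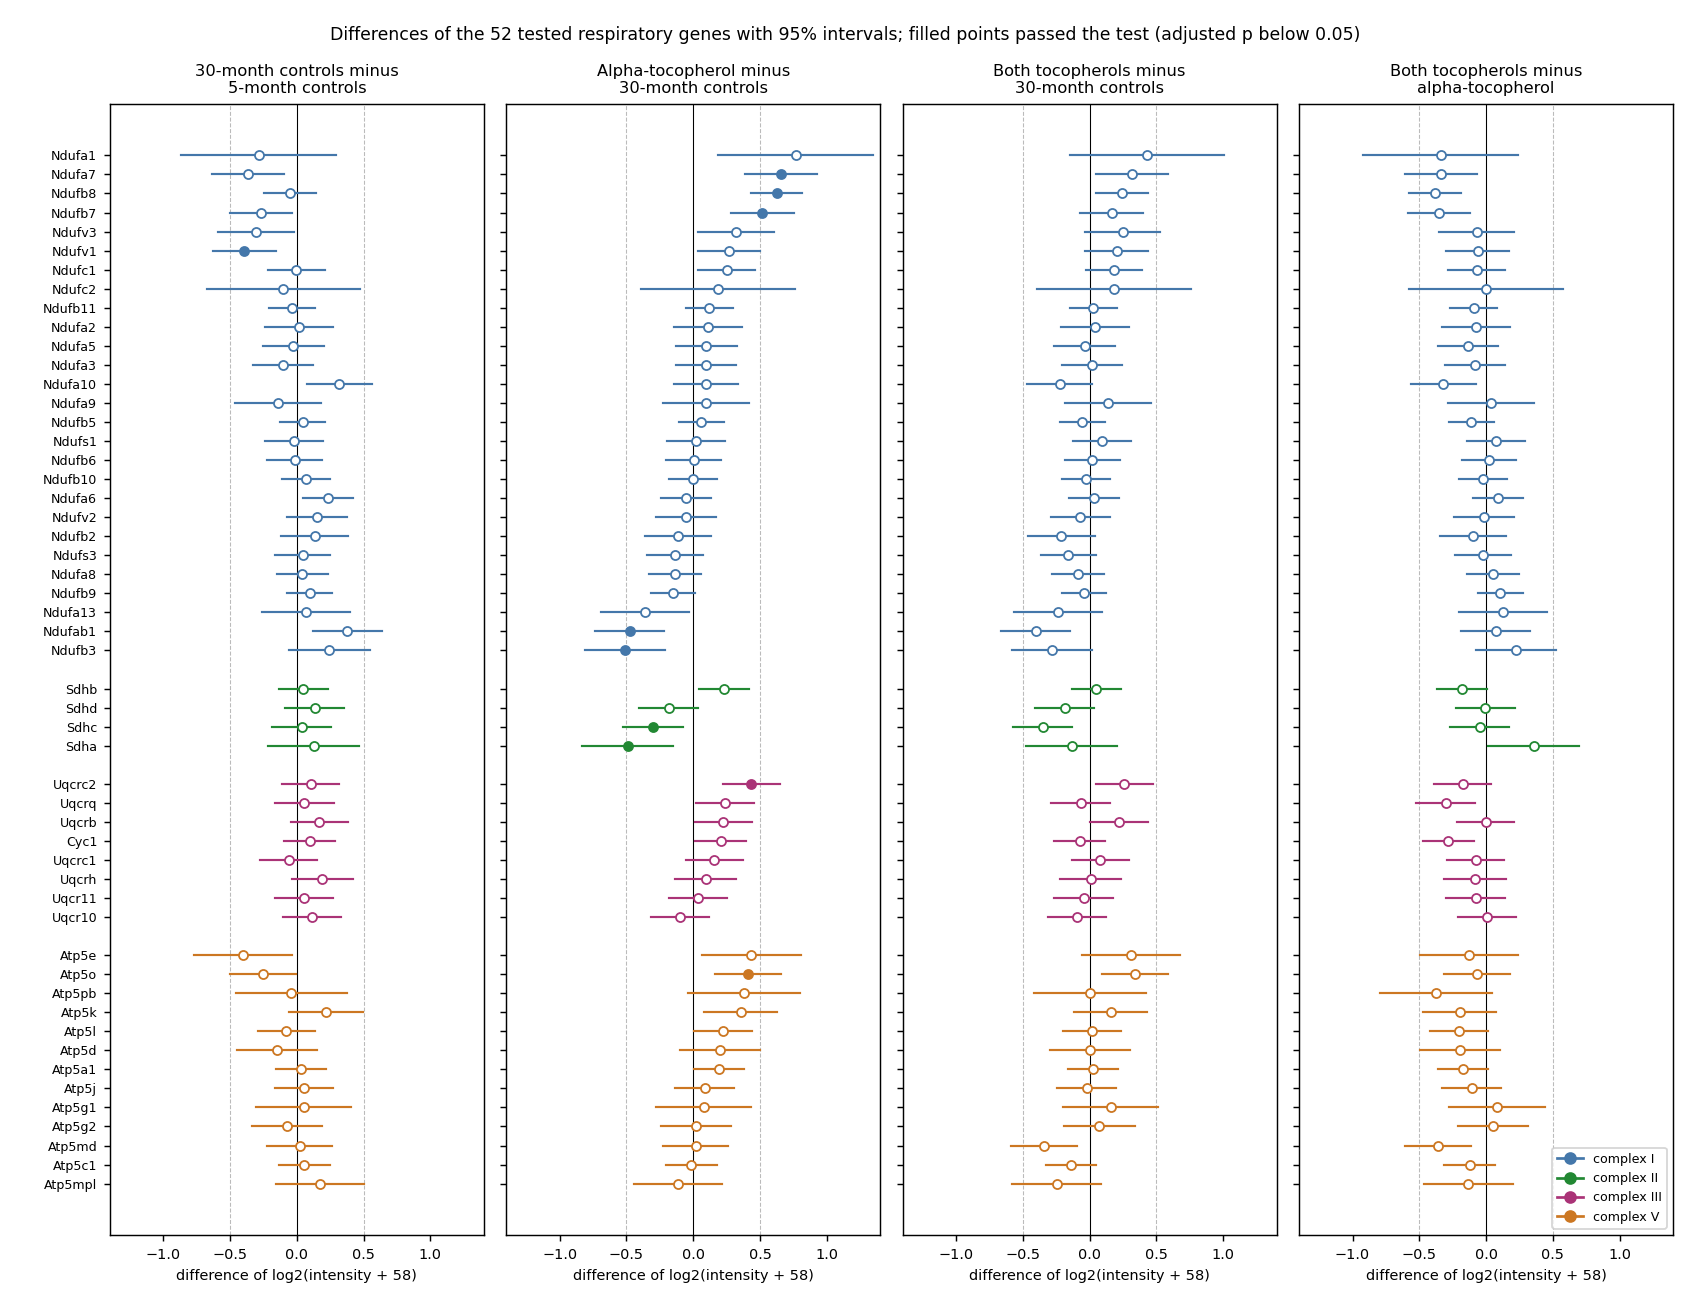
Differences of log2(intensity + 58) for the 52 tested genes (rows, grouped by complex and ordered by the alpha-tocopherol difference) in the 4 comparisons, with 95% intervals as lines. Filled points passed the test, 1 for age (Ndufv1) and 9 for alpha-tocopherol. The dashed lines stand at -0.5 and 0.5.

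The comparison of old with young controls asks how the levels differed with age. Ndufv1, the complex I subunit that binds NADH and holds the flavin, fell, and the other 51 tested members did not pass the test. Over the 52 genes the median difference was 0.04, against 0.01 over all tested probe sets, with 31 genes above 0 and 21 below. The 1 call among 52 stood beside 4.94% of all tested probe sets called for age, 2.74% higher and 2.2% lower. Such shares are given for this fit of the values as deposited, and not for the alternative fits. At an unadjusted p under 0.05 there were 9 of the 52 members and 1342 of all 7453.

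Ndufv1 read 16.38, 16.38, 16.02, 16.25 and 16.35 in the young controls. In the old controls it read 15.95, 16.01, 15.41, 16.02 and 16.03. Old control 3 was the lowest of all 20 animals, and the groups overlapped at young control 3 and old control 5. The difference was -0.39 ± 0.11 (limma adjusted p = 0.0458), or -23.8% in linear terms. Without old control 3 it was -0.27 (limma adjusted p = 0.102). The call was lost in 14 of the 20 fits that left out 1 animal and in 8 of 15 other alternatives, with the sign kept in all 35. Fits that left out a supplemented animal kept the difference at -0.39, so they could not change its sign. The call was kept without young control 3, old control 5, alpha-tocopherol animals 1 or 3, or animals 3 or 5 given both tocopherols.

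Ndufab1, the mitochondrial acyl carrier protein that is also a complex I subunit, read higher in old controls without passing the test. Its levels were 15.06, 15.22, 15.07, 15.33 and 15.13 in young controls and 15.53, 15.49, 15.87, 15.33 and 15.48 in old controls. The groups met at 15.33 without overlap, and the difference was 0.38 ± 0.12 (limma adjusted p = 0.0827). Ndufa7, an accessory subunit of the matrix arm of complex I, differed by -0.36 ± 0.13 (limma adjusted p = 0.118). Groups did not overlap, with old controls higher, in 3 members (Ndufab1, Ndufa6 and Ndufa10), beside 4.23% of all tested probe sets. In 0 members were all old controls lower, beside 2.79% of all (7.02% in either direction).

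By complex the age medians were -0.003 for complex I, which turned to 0.08 after quantile normalization, 0.09 for complex II, 0.10 for complex III and 0.02 for complex V. Without young control 3 and old control 3 those of complexes III and V turned to -0.02 and -0.05, and with array weights that of complex V to -0.01. Among other core subunits of complex I, Ndufs1 differed by -0.02 ± 0.10, Ndufs3 by 0.04 ± 0.10 and Ndufv2 by 0.15 ± 0.11. In complex II the catalytic subunits Sdha and Sdhb differed by 0.13 ± 0.17 and 0.05 ± 0.09, and the membrane anchors Sdhc and Sdhd by 0.04 ± 0.11 and 0.14 ± 0.11. In complex III cytochrome c1 (Cyc1) differed by 0.10 ± 0.09 and the core proteins Uqcrc1 and Uqcrc2 by -0.06 ± 0.10 and 0.11 ± 0.10. In complex V the catalytic-head subunit Atp5a1 differed by 0.03 ± 0.09, and Atp5g1 and Atp5g2, which encode the same proton-ring subunit c, by 0.05 ± 0.17 and -0.08 ± 0.13.

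These values limit how large an age difference in the measured signal could be. Whether the signal of such bright probe sets still follows the amount of transcript was not tested. The 95% interval of the difference lay within -0.5 to 0.5, a change of less than 1.41-fold either way, in 40 of the 52 genes (76.9%), against 36.9% of all tested probe sets. It did so in all 4 genes of complex II and all 8 of complex III, in 18 of 27 of complex I and in 10 of 13 of complex V. The member median lay at 0.11 after quantile normalization, with 2 genes called higher (Cyc1 and Ndufab1) and 0 lower. Without young control 3 and old control 3 it lay at -0.03, with 18 genes above 0 and 34 below, so its sign rests on those arrays.

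**Figure D2:**
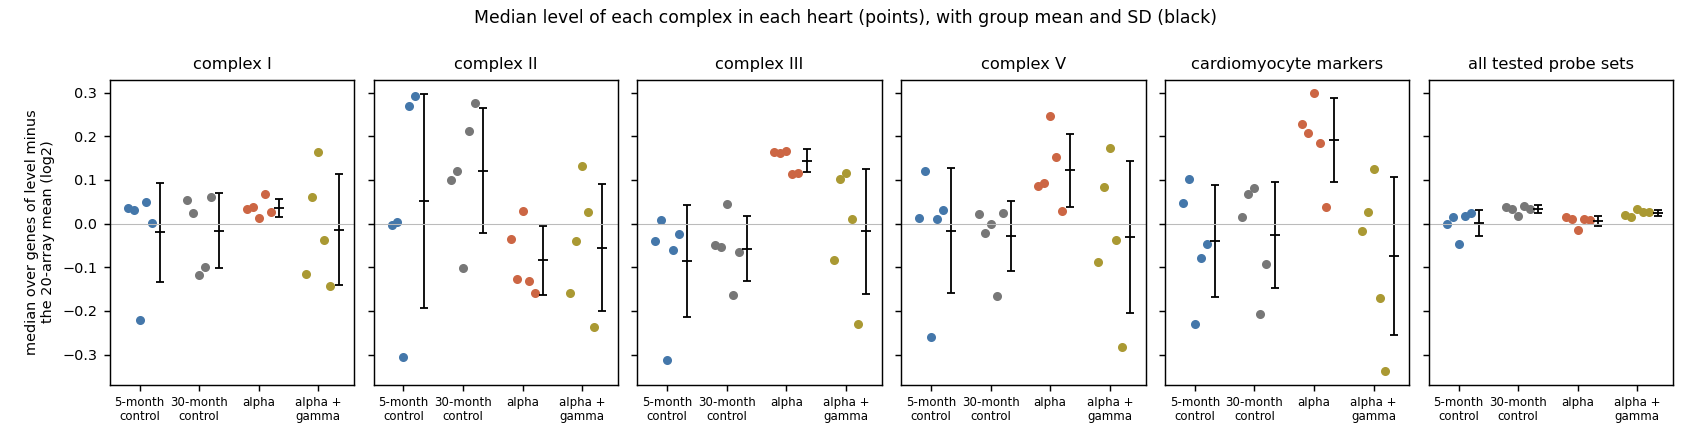
Median over the tested genes of each complex, over 12 cardiomyocyte markers and over all tested probe sets, of the level minus the mean of the 20 arrays (log2), for each heart, with group mean and SD in black. Young control 3 is the lowest young control in each complex (-0.22 to -0.31), and the alpha-tocopherol hearts lie at 0.11 to 0.17 in complex III.

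The alpha-tocopherol comparison asks how the levels differed in old hearts after supplementation. Of the 52 tested members 5 rose (Ndufb8, Ndufa7, Ndufb7, Uqcrc2 and Atp5o) and 4 fell (Ndufab1, Ndufb3, Sdha and Sdhc). Their differences ran from -0.51 to 0.66. The 9 calls are 17.3% of the members, beside 21.7% of all tested probe sets called in this comparison, 8.94% higher and 12.8% lower. After quantile normalization, another scaling of the arrays, 14 members were called, 5 higher and 9 lower. The share of all tested probe sets called after that scaling is not given here, so this count has no share beside it.

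Ndufb8, an accessory subunit of the membrane arm of complex I, had the smallest p of the members. It read 15.57, 15.58, 15.52, 15.17 and 15.29 in old controls and 16.08, 16.04, 16.22, 15.94 and 15.99 with alpha-tocopherol. All 5 supplemented hearts lay above all old controls and above all young controls (15.32 to 15.62). The difference was 0.62 ± 0.09 (limma adjusted p = 8.67e-05), a 1.54-fold higher level. Its age difference was -0.05 ± 0.09 and did not pass the test.

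Ndufa7 read 15.65, 15.62, 15.38, 15.08 and 14.91 in old controls. With alpha-tocopherol it read 16.06, 16.06, 16.20, 15.84 and 15.78, and the groups did not overlap. The rise was 0.66 ± 0.13 (limma adjusted p = 0.0011). Old controls 4 and 5 were the lowest animals, and young controls (15.53 to 15.94) overlapped both groups. Ndufb7, another membrane-arm subunit, read 15.27, 15.23, 14.80, 14.81 and 15.13 in old controls and 15.49, 15.57, 15.83, 15.41 and 15.52 with alpha-tocopherol. Its groups did not overlap either, and it rose by 0.52 ± 0.11 (limma adjusted p = 0.00242).

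Ndufab1 and Ndufb3 moved the other way within complex I. Ndufab1 read 15.29, 15.18, 14.56, 15.21 and 15.08 with alpha-tocopherol, each below the lowest old control (15.33). It fell by 0.48 ± 0.12 on the log2 scale (limma adjusted p = 0.00868). Ndufb3, a membrane-arm subunit, read 14.17, 14.20, 13.75, 14.12 and 14.37 in old controls and 13.76, 13.84, 13.81, 13.46 and 13.20 with alpha-tocopherol. Old control 3 lay within the supplemented range, and the other old controls lay above it. The change was -0.51 ± 0.15 (limma adjusted p = 0.0152). The other 22 tested genes of complex I did not pass the test and ranged from -0.36 for Ndufa13 to 0.77 for Ndufa1, whose animals varied widely (limma adjusted p = 0.0526). Ndufv1 differed by 0.27 ± 0.11 (limma adjusted p = 0.0937), and the core subunits Ndufs1, Ndufs3 and Ndufv2 by 0.02 ± 0.10, -0.14 ± 0.10 and -0.06 ± 0.11.

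In complex II 2 of the 4 subunits fell, and after quantile normalization 3 did. Sdha, the flavoprotein that oxidises succinate, read 13.19, 13.16, 12.51, 13.27 and 13.32 in old controls and 12.73, 12.69, 12.10, 12.76 and 12.72 with alpha-tocopherol. Animal 3 was far below the rest in both groups, and old control 3 brought the groups to overlap. Sdha fell by 0.49 ± 0.17 on the log2 scale (limma adjusted p = 0.0372). This call was lost without old control 1, 2, 4 or 5 or alpha-tocopherol animal 3 (-0.47, -0.48, -0.45, -0.44 and -0.37, limma adjusted p = 0.0691 to 0.119).

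The membrane anchor Sdhc read 15.06, 15.06, 14.89, 15.09 and 15.36 in old controls and 14.82, 14.77, 14.83, 14.80 and 14.73 with alpha-tocopherol. The supplemented hearts varied little, with an SD of 0.04, and all lay below the old controls. The change was -0.30 ± 0.11 (limma adjusted p = 0.0468), and the call was lost in 14 of the 20 fits that left out 1 animal (-0.35 to -0.24 over all 20). The call was kept without young control 3, 4 or 5, old control 3, or animals 3 or 5 given both tocopherols. The iron-sulfur subunit Sdhb, at 0.23 ± 0.09 (limma adjusted p = 0.0713), and the other anchor Sdhd, at -0.18 ± 0.11 (limma adjusted p = 0.227), did not pass the test. After quantile normalization Sdhd was called lower, at -0.32 ± 0.09 (limma adjusted p = 0.0167), and Sdhb stood at 0.01 ± 0.07. Sdhb read 15.57, 15.56, 15.35, 15.28 and 15.52 in old controls and 15.66, 15.70, 15.81, 15.69 and 15.58 with alpha-tocopherol, without overlap.

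In complex III the core protein Uqcrc2 rose by 0.43 ± 0.10 (limma adjusted p = 0.00459). It read 14.52, 14.44, 14.73, 14.50 and 14.68 in old controls and 14.90, 15.11, 14.91, 15.03 and 15.08 with alpha-tocopherol, without overlap. Its partner Uqcrc1 differed by 0.16 ± 0.10 and the small subunit Uqcrb by 0.22 ± 0.10, the latter also without overlap between the groups. Cyc1 differed by 0.21 ± 0.09 on its brightest probe set (limma adjusted p = 0.111). In complex V Atp5o, the stalk subunit known as OSCP, read 15.43, 15.47, 15.22, 14.86 and 15.21 in old controls and 15.71, 15.58, 15.74, 15.54 and 15.66 with alpha-tocopherol. It rose by 0.41 ± 0.12 (limma adjusted p = 0.0176), and without old control 4, the lowest animal, by 0.31, no longer past the threshold (limma adjusted p = 0.0591). Atp5a1 differed by 0.19 ± 0.09, Atp5g1 by 0.08 ± 0.17 and Atp5g2 by 0.02 ± 0.13, none of which passed the test.

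The alpha-tocopherol and old control groups did not overlap in 7 tested members that read higher (Ndufa7, Ndufb7, Ndufb8, Sdhb, Uqcrb, Uqcrc2 and Atp5o) and 2 that read lower (Ndufab1 and Sdhc). The corresponding shares of all tested probe sets were 6.84% and 9.39%, and 16.2% in either direction. At an unadjusted p under 0.05 there were 22 members (42.3%, against 35.5% of all). The 95% interval lay within -0.5 to 0.5 in 34 of 52 members (65.4%, against 25.9% of all).

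**Figure D3:**
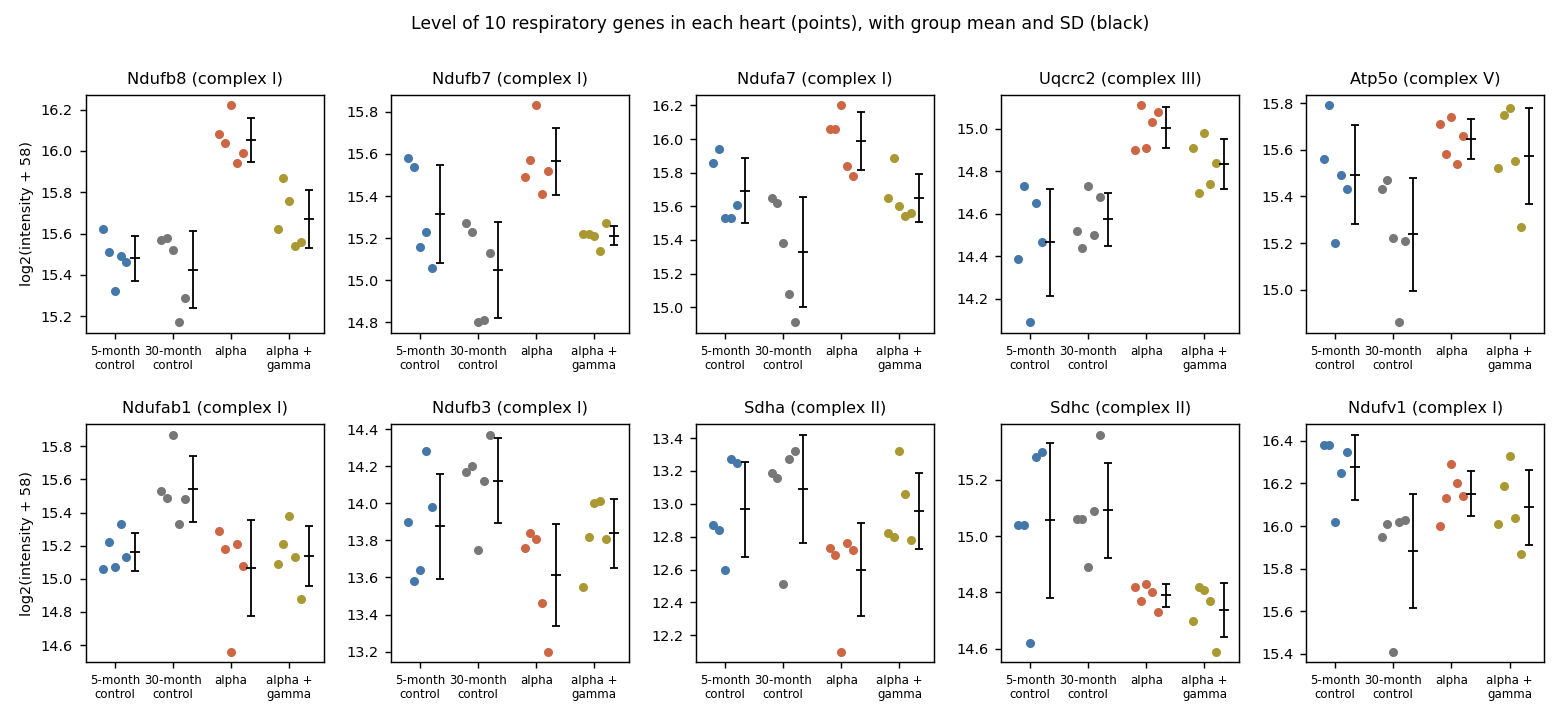
Level as log2(intensity + 58) in each of the 20 hearts (points, in order of animal number within a group) for 9 genes called with alpha-tocopherol and for Ndufv1, with group mean and SD in black. Each panel has its own axis, which does not start at 0. The alpha-tocopherol hearts lie above all old controls for Ndufb8 (15.94 to 16.22 against 15.17 to 15.58) and below them for Sdhc (14.73 to 14.83 against 14.89 to 15.36).

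By complex, the alpha-tocopherol medians were 0.09 for complex I, -0.24 for complex II, 0.18 for complex III and 0.19 for complex V, and after quantile normalization those of complexes I and III turned to -0.06 and -0.03 while the others were -0.36 and 0.05. Over all members the median was 0.09, against -0.02 over all tested probe sets, and turned to -0.03 after quantile normalization. The signs of all 9 called genes were the same in all 35 alternatives. Many of these could not change a sign. Leaving out an animal of a group not compared, another filter or variance model, the compared groups alone and the replicate block leave the difference as it was. Only Atp5o lost its call after quantile normalization (0.24 ± 0.09, limma adjusted p = 0.0553).

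The hybridization control and 18S levels moved with these changes. With the hybridization control level of each array as a covariate, 0 members were called higher and 3 lower (Ndufab1, Sdhc and Sdhd), and the median was -0.17. The medians of complexes I and III turned to -0.17 and -0.14 with this covariate, and that of complex II was -0.64. Ndufb8 was then 0.45 ± 0.16 (limma adjusted p = 0.118), Ndufb7 was 0.58 ± 0.20 (limma adjusted p = 0.117) and Atp5o was 0.09 ± 0.19 (limma adjusted p = 0.854). With the 18S level as a covariate 0 members were called, by limma, and the median was 0.17. Ndufb8 was then 0.45 ± 0.14 and Uqcrc2 0.43 ± 0.16, while Sdha was -0.06 ± 0.23 and Sdhc -0.08 ± 0.16. Since neither measure overlapped between the groups, their part and that of the diet cannot be told apart. The share of all tested probe sets called with either covariate is not given here. Without old controls 1 and 4, whose strain label differs, 6 members were called, of which 5 were among the 9, and Ndufa1 was added. The differences that then missed the threshold, with 3 old controls left, were -0.40 ± 0.20 for Sdha, -0.31 ± 0.13 for Sdhc, -0.50 ± 0.18 for Ndufb3 and 0.34 ± 0.13 for Atp5o. The median of complex II was -0.24 with and without these animals, and the part of the strain label was not tested.

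**Figure D4:**
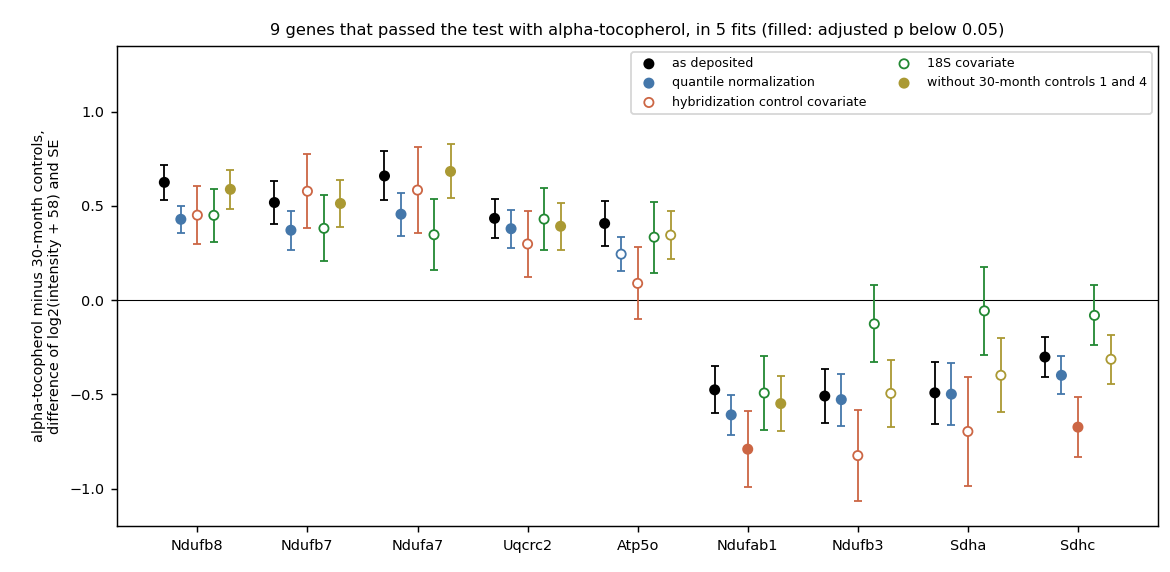
Difference of log2(intensity + 58) between alpha-tocopherol and old control hearts, ± SE, for the 9 called genes in 5 fits, with filled points for adjusted p below 0.05. Each gene keeps its sign in each of the 5 fits, and with the 18S covariate none is called, with Sdha at -0.06 and Ndufb3 at -0.13.

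Markers of several cell types differed on the same arrays. The counts below stand beside 21.7% of all tested probe sets called with alpha-tocopherol, 8.94% higher and 12.8% lower. Cardiomyocyte markers rose in 5 of 12 cases (Mb, Myl2, Myl3, Tnni3 and Tnnt2, from 0.26 to 0.50), with a median of 0.29, but after quantile normalization 0 were called higher and 1 lower and the median was -0.02. Their summed intensity was 936000 to 1140000 with alpha-tocopherol and 795000 to 912000 in old controls, without overlap. Of 11 fibroblast markers 7 fell and 1, Col1a2, rose (median -0.69), and their summed intensities overlapped, at 60700 to 91800 with alpha-tocopherol and 77400 to 85300 in old controls. Given in the same order, endothelial markers fell in 3 of 11 cases (28900 to 34100 and 33900 to 40100) and myeloid markers in 4 of 10 (24200 to 39600 and 37100 to 45400). Liver markers fell in 4 of 6 cases (1530 to 2540 and 4420 to 22400). Skeletal muscle markers rose in 3 of 8 cases and fell in 1 (17100 to 23200 and 15500 to 27000). These counts, other than that of cardiomyocyte markers, were the same after quantile normalization. None of the 2 T cell, 6 adipocyte or 4 red cell markers tested was called by limma (0, 0 and 2 at an unadjusted p under 0.05), and no marker read 0 on any array. The part of these markers in the members' changes was not tested.

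The group given both tocopherols was compared with the same old controls. None of the 52 members passed the test in limma, beside 6.43% of all tested probe sets (2.67% higher and 3.76% lower), and 8 had an unadjusted p under 0.05 (15.4%, against 22.9% of all). The median difference was 0.01, against -0.01 over all, and turned to -0.005 after quantile normalization. Medians by complex were 0.02 for complex I, -0.16 for complex II, -0.02 for complex III and 0.02 for complex V, with the same signs after quantile normalization. With the hybridization covariate those of complexes I and V turned to -0.08 and -0.10, with array weights that of complex I to -0.02, and without old controls 1 and 4 that of complex V to -0.04. That of complex III turned to 0.02 with the 18S covariate and to 0.009 without young control 3 and old control 3. The 95% interval lay within -0.5 to 0.5 in 39 of the 52 genes (75.0%, against 33.6% of all).

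The smallest p-values belonged to Sdhc, Ndufab1 and Atp5md. Sdhc read 14.70, 14.82, 14.81, 14.77 and 14.59, all below the old controls (14.89 to 15.36), and differed by -0.35 ± 0.11 (limma adjusted p = 0.0513). Among the tested members it was the only one whose groups did not overlap. The shares of all tested probe sets were 3.38% separate and higher, 4.94% separate and lower, and 8.32% in either direction. Ndufab1 read 15.09, 15.21, 15.38, 15.13 and 14.88 and differed by -0.40 ± 0.12 (limma adjusted p = 0.0526). Atp5md, a small membrane subunit of the ATP synthase, read 16.49, 16.41, 16.46, 16.30 and 16.42 in old controls. With both tocopherols animals 1, 3, 4 and 5 read 15.94, 16.44, 16.12 and 15.86, and animal 2 lay between animals 1 and 4. Animal 3 lay within the old control range and the other 4 below it, and the difference was -0.34 ± 0.12 (limma adjusted p = 0.0844).

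The genes called with alpha-tocopherol alone read as follows with both tocopherols, against the same old controls. Ndufb8 differed by 0.24 ± 0.09, Ndufa7 by 0.32 ± 0.13, Ndufb7 by 0.16 ± 0.11, Uqcrc2 by 0.26 ± 0.10 and Atp5o by 0.34 ± 0.12. Ndufb3 differed by -0.28 ± 0.15 and Sdha by -0.14 ± 0.17. The 2 comparisons share their control animals, so values of the same sign in both are not independent. Counts of calls here depended on the setting, and the shares of all tested probe sets called in these settings are not given. With array weights 4 members were called (Sdhc, Ndufab1 and Atp5md lower, Uqcrc2 higher), and with the hybridization covariate 3 (Sdhc, Ndufab1 and Atp5md). In fits that left out 1 animal the count ran from 0 to 2, with a call for Sdhc without young control 3, 4 or 5 or old control 3. Ndufab1 was called without old control 4, alpha-tocopherol animal 3 or animal 3 given both tocopherols, the last with Atp5md, and Atp5o without animal 5 given both tocopherols.

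For this group the level of the hybridization controls differed from old controls by 0.28, with overlap (two-sided exact permutation p = 0.16). Of 11 fibroblast markers 4 fell and 1 rose, endothelial markers fell in 3 of 11 cases (1 after quantile normalization), myeloid markers in 1 of 10 and liver markers in 3 of 6, and skeletal muscle markers rose in 1 of 8. Over all tested probe sets 6.43% were called in this comparison. Of 12 cardiomyocyte markers, 2 T cell, 6 adipocyte and 4 red cell markers 0 were called by limma, with 2, 0, 0 and 2 at an unadjusted p under 0.05. After quantile normalization 1 cardiomyocyte marker was called lower. Summed cardiomyocyte intensity was 690000 to 961000. For age, 2 of 11 endothelial markers rose and 1 of 6 adipocyte markers fell, and the other 7 marker lists had 0 calls by limma, with 0 to 4 markers each at an unadjusted p under 0.05. Over all tested probe sets 4.94% were called for age. With quantile normalization 1 cardiomyocyte and 1 red cell marker were also called higher for age.

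The direct comparison of the 2 supplements sets 500 mg/kg of each tocopherol against 1000 mg/kg of alpha-tocopherol. The dose of alpha-tocopherol and the presence of gamma-tocopherol differ together here and cannot be told apart. None of the 52 members passed the test in limma, beside 0.564% of all tested probe sets (0.309% higher and 0.255% lower), and 8 had an unadjusted p under 0.05 (15.4%, against 15.9% of all). The median was -0.08, against 0.01 over all, with 39 of 52 members below 0, and turned to 0.02 after quantile normalization and to 0.10 with the hybridization covariate. That covariate read 0.57 lower on the arrays of the group given both tocopherols, and 18S read 1.14 lower (two-sided exact permutation p = 0.0079 for each, 0.032 after adjustment).

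Ndufb8 read 15.62, 15.87, 15.76, 15.54 and 15.56 with both tocopherols, all below the alpha-tocopherol hearts (15.94 to 16.22). The difference was -0.38 ± 0.09, with a 95% interval of -0.58 to -0.19 (limma adjusted p = 0.0561). It was called without young control 3, old control 3 or animal 2 given both tocopherols, without young control 3 and old control 3 together, and with the dimmest 60% of probe sets left out. These are 3 of the 20 fits that left out 1 animal and 2 of the 15 other alternatives. After quantile normalization the difference was -0.25 ± 0.07 (limma adjusted p = 0.096). Ndufb7 read 15.22, 15.22, 15.21, 15.14 and 15.27, again all below the alpha-tocopherol hearts, with a difference of -0.35 ± 0.11 (interval -0.59 to -0.12, limma adjusted p = 0.127). Cyc1 read 16.63, 16.65, 16.75, 16.53 and 16.53 with alpha-tocopherol and 16.30, 16.47, 16.44, 16.36 and 16.11 with both. Its difference was -0.28 ± 0.09 (interval -0.47 to -0.09, limma adjusted p = 0.14). After quantile normalization it was -0.001. Groups did not overlap in 4 members that read lower with both tocopherols (Ndufb7, Ndufb8, Cyc1 and Uqcrq), beside 1.6% of all tested probe sets, and in Sdha, which read higher, beside 2.31% (3.9% in either direction). The 95% interval lay within -0.5 to 0.5 in 41 of 52 members (78.8%, against 38.1% of all). An interval that spans 0 does not show that the supplements acted alike.

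The 3 members below the filter were read by dim probe sets, with intensities of 60.6 to 761.4, where the added 58 shrinks differences. Ndufs4, an accessory subunit of complex I, read 9.11, 9.68, 8.79, 9.12 and 9.64 in old controls and 8.62, 8.14, 6.90, 7.41 and 8.70 with alpha-tocopherol. The supplemented hearts were all lower and spread more widely than the controls. Ndufa12, another accessory subunit of complex I, read 7.16, 6.89, 7.70, 7.64 and 7.07 in old controls and 8.02, 8.81, 8.17, 8.77 and 8.54 with alpha-tocopherol, all higher. Atp5j2, subunit f of the ATP synthase, read 7.89, 8.12, 7.62, 8.58 and 8.72 in old controls and 9.04, 9.50, 9.08, 9.35 and 8.94 with alpha-tocopherol, also without overlap. In the fit with no filter, over 12422 probe sets, these differences were -1.31 ± 0.30 for Ndufs4 (limma adjusted p = 0.00587), 1.17 ± 0.30 for Ndufa12 (limma adjusted p = 0.0113) and 0.99 ± 0.29 for Atp5j2 (limma adjusted p = 0.0255). None of the 3 was called in the other 3 comparisons of that fit (limma adjusted p = 0.0781 to 0.933). Over those probe sets the median alpha-tocopherol difference was 0.07. The shares of the 12422 probe sets called or without overlap in that fit are not given here. Those given above, 21.7% called and 16.2% without overlap, hold for the 7453 tested probe sets only. With both tocopherols Ndufs4 read 7.99 to 8.63, all below the old controls, and Ndufa12 read 7.76 to 8.8, all above them. Atp5j2 overlapped between those groups.

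**Figure D5:**
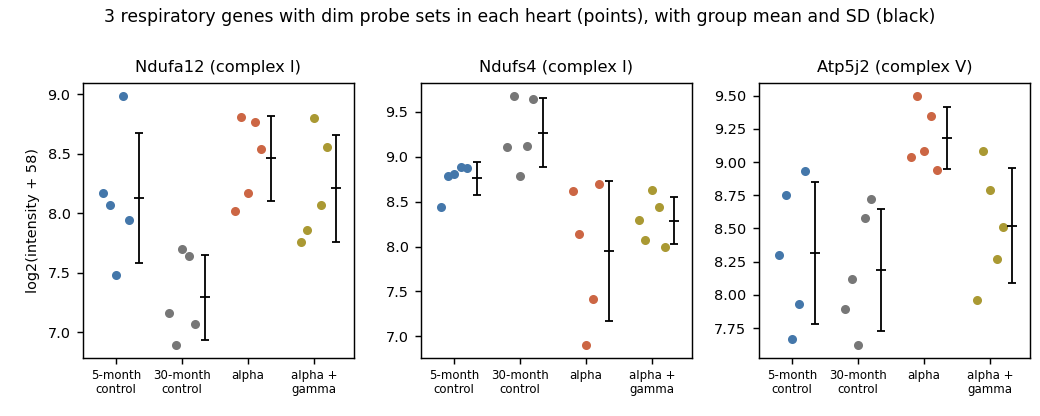
Level as log2(intensity + 58) in each of the 20 hearts (points) for the 3 members below the filter, with group mean and SD in black. The alpha-tocopherol hearts lie below all old controls for Ndufs4 (6.90 to 8.70 against 8.79 to 9.68) and above them for Ndufa12 and Atp5j2.

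Several probe sets read the same gene in 13 members, and more than 1 of them was tested in 8. For Cyc1 the probe sets differed in size: a dimmer one rose by 0.86 ± 0.14 with alpha-tocopherol (limma adjusted p = 0.000202), where the brightest gave 0.21. With age the dimmer one gave -0.45 ± 0.14 (limma adjusted p = 0.0635) and the brightest 0.10, of opposite sign. The signs also differed with both tocopherols. There the dimmer one gave 0.45 ± 0.14 against old controls (limma adjusted p = 0.0539), and the brightest had a lower mean than in old controls. For Atp5c1, the gamma subunit of the central stalk, a second probe set rose by 0.27 ± 0.09 with alpha-tocopherol (limma adjusted p = 0.0397), where the brightest gave -0.01. For Atp5d, Atp5l, Atp5g1 and Ndufv2 other probe sets also differed in sign in at least 1 comparison and did not pass the test. With alpha-tocopherol, Atp5d gave 0.20 on its brightest probe set and 0.36, -0.15 and -0.12 on the others, and Atp5l gave 0.22 and -0.24. For Ndufv2 the alpha-tocopherol values were -0.06 and 0.08. For age, Atp5g1 gave 0.05 and -0.69. With the mean over a gene's probe sets 10 members were called for alpha-tocopherol, the 9 above and Cyc1. Of the 7 tested probe sets with several symbols, 1 was called for age, 1 for alpha-tocopherol, 1 for both tocopherols and 0 between the supplements by limma. In the same order, 4.94%, 21.7%, 6.43% and 0.564% of all tested probe sets were called.

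Other genes of the pathway were taken from lists. Over all tested probe sets 4.94% were called for age, 21.7% with alpha-tocopherol and 6.43% with both tocopherols, and the lists are small beside that. Complex IV passes electrons from cytochrome c to oxygen, and 12 of its subunit genes were tested. With age Cox6b2 fell by 1.34 ± 0.29 on the log2 scale (limma adjusted p = 0.00743) and Cox7b rose by 0.37 ± 0.10 (limma adjusted p = 0.0368). With alpha-tocopherol 3 subunits rose and 0 fell: Cox6b1 by 0.78 ± 0.14, Cox6b2 by 1.07 ± 0.29 and the muscle isoform Cox6a2 by 0.45 ± 0.11. With both tocopherols Cox6b1 rose by 0.53 ± 0.14. After quantile normalization Cox6a2 was 0.15 ± 0.07 with alpha-tocopherol and no longer called (limma adjusted p = 0.103).

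Of 10 assembly factors, Ndufaf1, which helps assemble complex I, rose with age by 0.43 ± 0.12 (limma adjusted p = 0.0458, and 0.0514 after quantile normalization), and Uqcc3, which acts on complex III, fell by 1.18 ± 0.33 on the log2 scale with alpha-tocopherol. Of 7 genes of cytochrome c and coenzyme Q, Cycs, somatic cytochrome c, rose with age by 0.73 ± 0.13 (limma adjusted p = 0.0019). With alpha-tocopherol 3 of the 7 fell, namely Cycs (-0.39 ± 0.13), Coq7 (-0.57 ± 0.16) and Coq10a (-0.52 ± 0.15). Of 4 genes of the ATP synthase inhibitor and substrate carriers, the ADP/ATP carrier Slc25a4 rose with alpha-tocopherol by 0.34 ± 0.11, but after quantile normalization it was 0.08 ± 0.08 (limma adjusted p = 0.502). Of 8 regulators of respiratory genes, Gabpa, the DNA-binding subunit of GABP, fell with alpha-tocopherol by 1.17 ± 0.18 on the log2 scale (limma adjusted p = 0.000153). None of these 5 lists held another call in any comparison. The shares of all tested probe sets beside these counts are 4.94% for age and 21.7% with alpha-tocopherol. The levels of Gabpa and of the members whose windows hold GABP letters were not compared further.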

How the data were processed

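Hearts of 20 mice were measured, 1 array each. Per the labels' protocols, polyadenylated RNA was purified and biotin-labelled complementary RNA was hybridized. The authors deposited a table of linear intensity values for 12488 probe sets, and the sources used here do not name the software. Arrays share a trimmed mean of 1501.0 to 1501.1 (2% left out at each end), and this scaling was kept. Symbols come from the platform annotation, and 10817 were matched to RefSeq (GRCm38.p6) with 0 changed.

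Values were taken as log2(intensity + 58). Tests covered 7453 probe sets, without 66 controls and, of the rest, the 40% of lowest mean. A model of group means was fitted to the 20 arrays (limma 3.58.1, R 4.3.3; eBayes with variance trend and robust estimation), two-sided, with Benjamini-Hochberg adjustment and a threshold of 0.05. With 5 arrays per group, their number limits precision. The steps were tested on simulated data. Hybridization control, 18S, Gapdh and actin levels were compared by exact permutation.

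Named members were those called in a comparison, or the 3 with the smallest p where fewer than 3 were called, 22 fixed genes of which 15 were on the array, and the brightest and dimmest of each complex, of which the text names part. Members named for a group overlap, a leave-out or a lost call, and those read for their range, were named after their values were seen. Lists were 5 of the pathway and 9 of cell type markers. Members and lists were chosen with earlier results of these data known. Alternatives were 2 pseudocounts, 2 filters, 2 scalings, another variance model, array weights, the compared groups alone, a replicate block, the mean over probe sets, 2 covariates, 2 omissions of arrays, and each animal left out in turn.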

Additional observations from a re-analysis of the deposited data

Results flagged for a closer look

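Among 120 groups of 5 values examined, 13 (10.8%) had 1 animal far from the other 4 by Dixon's criterion, where chance flags about 1 in 20. The groups share the same 20 arrays, and the medians contain members also examined alone. The flags are therefore not independent, and their share was not tested. Young control 3 was the lowest of its group for Atp5a1 (15.85), Atp5l (16.13) and Ndufb5 (15.88), and for the medians of all members (-0.26), complex I (-0.22) and complex III (-0.31). Old control 3 stood apart high for Cyc1 (16.69) and low for Ndufv1 (15.41) and Sdha (12.51). Old control 5 was high for Atp5l (16.68), and old control 4 was low for the median of complex V (-0.17). Alpha-tocopherol animal 3 was low for Sdha (12.10), and animal 5 given both tocopherols was low for Uqcrc1 (15.40).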

How the results depend on the processing

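Of 3220 values of 92 named gene comparisons under the alternatives, 2974 kept their sign and their side of the threshold. A further 69 lost a call, 43 gained one, 134 that were not called changed sign, and 0 called values reversed. In many of these fits the difference could not change, as where an animal of a group not compared was left out. The kept signs are therefore not independent checks. For age, 0 members were called with no filter, with no variance trend, in the compared groups alone, with the 18S covariate and without old controls 1 and 4, and 2 with quantile normalization and with array weights. For alpha-tocopherol, 14 were called with quantile normalization (median -0.027), 3 with the hybridization covariate (median -0.17) and 0 with the 18S covariate. For both tocopherols the count was 2 with the dimmest 60% left out, 3 with quantile normalization, 4 with array weights, 1 in the compared groups alone, 3 with the hybridization covariate (median -0.10) and 2 without young control 3 and old control 3. Between the supplements it was 1 with the dimmest 60% left out and 1 without young control 3 and old control 3, and the median was 0.024 with quantile normalization and 0.10 with the hybridization covariate. Leaving out each animal gave 0 to 2 calls for age (medians -0.02 to 0.08), 7 to 12 for alpha-tocopherol (0.05 to 0.13), 0 to 2 for both tocopherols (-0.03 to 0.05) and 0 to 1 between them (-0.12 to -0.03). The share of all tested probe sets called is not given for these alternatives, and the causes were not tested. Correlations of the deviations of same-numbered animals ran from -0.08 to 0.10. Differently numbered animals were not compared, so whether the sample numbers pair the animals was not tested. With a replicate block 1 member was called for age (Ndufa7), 8 for alpha-tocopherol, 0 for both tocopherols and 0 between the supplements.

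The p-values measure the spread between 5 animals per group. With a median standard error of 0.11, differences of this order could not be told from 0. Intensities near the added 58 give compressed differences, as for Ndufs4, Ndufa12 and Atp5j2.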
